A study of Mus musculus with 27 samples.

Results

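The genes described here are 8 of the mouse Prame-like family: Pramel4, Pramel5, Pramel6, Pramel7, Pramef8, Pramef12, Pramef17 and Pramef25. They are 8 of the 20847 distinct gene symbols in 4 deposited count tables and were taken by symbol. The list was drawn up with results of the stem cell and oocyte comparisons known, so the values of the 8 genes there are a description, and no p is given for them. The study removed proteins of the Ythdf group, which read the mRNA mark m6A, or the enzyme Mettl3 that writes this mark, and sequenced RNA from 27 libraries of mouse stem cells, oocytes and round spermatids. The stem cells were of KH2 (C57BL/6 x 129/Sv) background, with 2 libraries each of WT, Ythdf1-/-, Ythdf2-/-, Ythdf3-/-, Ythdf1-/-Ythdf2-/-Ythdf3-/- (triple knockout) and Mettl3-/- cells, grown in serum and LIF. Germinal vesicle (GV) oocytes came from Mettl3f/f Zp3-Cre+ females (3 libraries) and Mettl3f/f Zp3-Cre- controls (4 libraries) of BDF1 X C57BL/6 X Jax#003651 background. Both groups carry the floxed allele, and the Cre is driven by the promoter of the oocyte gene Zp3. Oocytes past the GV stage came from Ythdf2-/- (2 libraries) and Ythdf2+/- females (3 libraries), and FACS-isolated round spermatids from Ythdf2-/- (2 libraries) and Ythdf2+/+ males (1 library), all CB6F1 X C57BL/6. The labels do not give ages, and for the stem cells do not say whether the 2 libraries of a genotype are separate cultures or clones, so the spread between them may be technical.

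PRAME-like proteins are leucine-rich repeat proteins, and human PRAME acts as a substrate receptor of a CUL2 ubiquitin ligase together with the elongins B and C. The family has expanded into many tandem copies in the mouse, and its members are known mainly from the germ line and the early embryo. Pramel7 is known from the inner cell mass and naive stem cells, where it directs the DNA methylation factor UHRF1 to degradation, and Pramel6 and Pramel7 have been placed downstream of LIF and STAT3. Much less is known of the other listed genes.

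In the GRCm38 annotation (GENCODE M21) all 8 are protein coding. Pramel7 (chr2:87489087-87497093, minus strand) and Pramel6 (chr2:87506565-87510872, plus strand) lie 9471 bases apart on chromosome 2. The other 6 lie on chromosome 4 within 996 kb, from Pramef8 (chr4:143412426-143421091) to Pramef12 (chr4:144391674-144408464). RefSeq now names Pramef8, Pramef12, Pramef17 and Pramef25 as Pramel12, Pramel13, Pramel14 and Pramel16. Copies limit what counts of single genes can show. Of all 50-base stretches of its transcripts, Pramel4 shared 87.36% with transcripts of other genes (mostly Gm13102, Pramel5 and Pramef6), Pramef17 73.47% (Gm13128) and Pramef25 63.55% (Gm13040, Gm13043 and Gm13057), while Pramel5 shared 25.92% and Pramel7 1.43%. Pramel6, Pramef8 and Pramef12 shared none. How reads that match several genes were counted is not given in the sources used here, so values of Pramel4, Pramef17 and Pramef25 are uncertain between copies. The sum over the listed genes is given beside them, but it leaves out the unlisted copies named here.

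The promoters of 7 of the 8 genes were matched in RefSeq on GRCm38.p6 (Pramef8 was not), and 4 are printed here because these genes differed most between the groups. Each runs 5′ to 3′ on the gene's own strand, from 250 bases before to 30 bases after the start that RefSeq gives. For Pramel7 that start lies inside the longer GENCODE span given above, so the annotations differ in where the gene begins. For Pramel7 (chr2:87492389-87492668, minus strand) and Pramef17 (chr4:143994340-143994619, minus strand), capitals mark bases identical in their alignment. For Pramel6 (chr2:87506315-87506594, plus strand), capitals mark CCAAT or its reverse complement, and for Pramef25 (chr4:143950987-143951266, minus strand) no searched motif was found and nothing is in capitals.
Pramel7: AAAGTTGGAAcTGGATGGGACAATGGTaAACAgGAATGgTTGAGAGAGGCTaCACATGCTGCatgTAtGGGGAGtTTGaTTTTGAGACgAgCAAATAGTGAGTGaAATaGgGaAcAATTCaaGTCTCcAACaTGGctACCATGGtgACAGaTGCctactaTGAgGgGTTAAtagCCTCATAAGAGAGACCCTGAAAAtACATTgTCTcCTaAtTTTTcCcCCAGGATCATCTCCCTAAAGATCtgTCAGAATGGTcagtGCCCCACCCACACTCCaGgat
Pramef17: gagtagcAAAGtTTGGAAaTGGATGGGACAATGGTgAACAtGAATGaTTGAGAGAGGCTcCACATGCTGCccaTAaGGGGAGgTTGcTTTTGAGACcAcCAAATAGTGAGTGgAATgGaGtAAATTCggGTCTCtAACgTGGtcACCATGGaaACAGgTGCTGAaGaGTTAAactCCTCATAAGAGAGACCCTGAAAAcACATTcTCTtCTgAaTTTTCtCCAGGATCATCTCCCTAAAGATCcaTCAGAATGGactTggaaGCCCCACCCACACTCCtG
Pramel6: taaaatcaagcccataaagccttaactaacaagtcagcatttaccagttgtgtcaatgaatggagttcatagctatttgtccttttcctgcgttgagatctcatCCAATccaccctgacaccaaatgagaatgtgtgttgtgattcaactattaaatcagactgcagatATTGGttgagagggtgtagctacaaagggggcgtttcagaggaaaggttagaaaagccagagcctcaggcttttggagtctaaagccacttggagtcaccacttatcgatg
Pramef25: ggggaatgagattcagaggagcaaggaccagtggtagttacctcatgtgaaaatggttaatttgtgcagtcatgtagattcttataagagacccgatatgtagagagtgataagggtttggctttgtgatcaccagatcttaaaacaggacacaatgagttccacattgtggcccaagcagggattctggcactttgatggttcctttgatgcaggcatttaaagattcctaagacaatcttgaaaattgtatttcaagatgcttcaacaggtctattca
Pramel7 and Pramef17 lie on different chromosomes, and their windows were 77.3% identical, with a longest identical run of 23 bases. The Pramel4 and Pramel5 windows were 82.7% identical, and the 19 other pairs of the 7 windows ranged from 43.2% to 51.0%. The neighbours Pramel6 and Pramel7 were 45.4% identical. CCAAT, searched on both strands like every motif, was in 3 of the 7 windows (Pramel4, Pramel5 and Pramel6) and in 36.1% of all 32851 RefSeq promoter windows of the same length. The TATA box letters TATAAA were in none of the 7, against 13.1% of all windows. Also in none of the 7 were the E-box letters CACGTG (6.79% of all windows) and the E2F-type letters TCCCGC (18.8%). Of 39 RefSeq windows of the whole Prame family, 22 held CCAAT, 13 held TATAAA and 0 held either of the other 2 motifs. None of these motifs contains another, and a match is a description of letters alone.

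The tables held whole-number counts that summed to between 612598 and 1111764 per stem cell library, 6484397 and 18181397 per GV library, 12409822 and 25015081 per post-GV library, and 18843689 and 32759740 per spermatid library. In the shallow stem cell table, no listed gene exceeded 131 reads in a library. Levels are given as CPM, counts relative to the library total after TMM scaling, and a gene was called at an adjusted p under 0.05 in edgeR's quasi-likelihood test over all genes of a table. The Mettl3 transcript was lower in Mettl3-/- stem cells (15.2 to 18.1 CPM, WT 137 to 140, adjusted p = 1.03e-23) and in Zp3-Cre+ oocytes (0.901 to 3.46 CPM, controls 13.2 to 41.7, adjusted p = 0.00182). The targeted Ythdf transcripts were not called lower in any Ythdf knockout against its control, so the transcript levels do not check those labels (Ythdf2 was 10.5 to 18.1 CPM in Ythdf2-/- stem cells and 25.0 to 26.1 in WT, adjusted p = 0.216). In post-GV oocytes Ythdf2 went against the label, at 156 to 197 CPM in the libraries labelled Ythdf2-/- and 73.2 to 132 in heterozygotes (adjusted p = 0.848), and in spermatids it was 27.9 to 29.9 against 29.2 CPM. Which part of the gene was deleted is not given in the labels, so reads from the rest of the transcript cannot be set apart. Stem, oocyte and spermatid markers were abundant in the tissue they mark. In post-GV oocytes, Ythdf2-/- replicate 1 stood apart from the other 4 libraries in several listed genes, as given below.

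Stem cells held 6 of the listed genes, Pramel4 and Pramel5 not being in that table of 14006 genes. Every gene of that table reached at least 6 reads in some library, so absent genes may still have had a few reads. In WT cells the listed genes were far apart in level: Pramef12 was highest per length at 43.2 ± 3.77 CPM per kb (SD, n = 2), followed by Pramef8 at 13.7 ± 2.84, Pramef17 at 7.41 ± 1.03, Pramef25 at 3.20 ± 1.53, Pramel6 at 2.58 ± 0.0191 and Pramel7 at 0.838 ± 0.588. Pramef25 and Pramel6 did not differ beyond their spread in that order. In the triple knockout the order was different. Pramel6 was then highest per length at 72 ± 6.14, ahead of Pramef12 at 54.9 ± 2.16, Pramel7 at 46.2 ± 1.85, Pramef25 at 44.1 ± 2.06, Pramef17 at 22.8 ± 7.98 and Pramef8 at 18.1 ± 2.41. Pramel7 and Pramef25 overlapped within their spread there, as did Pramef17 and Pramef8.

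Pramel7, the UHRF1-directed member, had 1 and 3 reads in WT libraries A and B (0.901 and 2.67 CPM) and 65 and 70 reads in the triple knockout (101 and 95.8 CPM). Ythdf1-/- cells had 9 and 7 reads (10.0 and 7.65 CPM), and the Ythdf2-/-, Ythdf3-/- and Mettl3-/- libraries had 2 or 3 reads each. Both triple knockout libraries were thus far above every other library, and both Ythdf1-/- libraries lay between. The fitted log2 difference from WT was 5.66 ± 0.33 (SE) in the triple knockout and 2.21 ± 0.60 in Ythdf1-/- cells. With so few WT reads its size depended on the WT library used: the triple knockout difference was 5.12 without WT library A and 6.54 without WT library B, and that in Ythdf1-/- cells 1.67 and 3.09.

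Pramel6, its neighbour on chromosome 2, had 6 and 6 reads in WT (5.41 and 5.35 CPM), 102 and 103 in the triple knockout (159 and 141 CPM) and 33 and 21 in Ythdf1-/- cells (36.7 and 23.0 CPM). Ythdf2-/- libraries had 3 and 11 reads, Ythdf3-/- 5 and 6, and Mettl3-/- 2 and 7. The log2 difference from WT was 4.76 ± 0.24 in the triple knockout and 2.44 ± 0.35 in Ythdf1-/- cells, but 0.66 ± 0.50, 0.59 ± 0.53 and 0.19 ± 0.56 in Ythdf2-/-, Ythdf3-/- and Mettl3-/- cells. Without library B of the knockout, the Ythdf2-/- and Mettl3-/- differences were -0.45 and -0.69. Pramel6 and Pramel7 were thus high in the same libraries. Over the 12 libraries, which share depth and fall into 6 genotypes, their log2(CPM + 1) values had a Pearson r of 0.939, the highest among all pairs of the 6 members.

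Pramef25 on chromosome 4 differed in more of the genotypes. WT had 8 and 4 reads (7.21 and 3.57 CPM), the triple knockout 46 and 56 (71.8 and 76.7 CPM), Ythdf1-/- 32 and 26 (35.5 and 28.4 CPM) and Ythdf3-/- 12 and 19 (20.1 and 25.2 CPM). Ythdf2-/- libraries had 2 and 5 reads, and Mettl3-/- libraries 0 and 2. Triple, Ythdf1-/- and Ythdf3-/- libraries lay above WT, with log2 differences of 3.75 ± 0.29, 2.54 ± 0.34 and 2.06 ± 0.40, and without WT library A the Ythdf3-/- difference was 2.64. Both Mettl3-/- libraries lay below WT. With 2 against 12 reads, the Mettl3-/- to WT ratio was 0.254 (95% interval 0.0276 to 1.14, covering counting error only).

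Pramef17 had 13 and 16 reads in WT (11.7 and 14.3 CPM), 32 and 22 in the triple knockout (49.9 and 30.1 CPM) and 1 and 3 in Mettl3-/- cells (1.64 and 3.51 CPM). The triple knockout lay above WT (log2 difference 1.59 ± 0.29) and Mettl3-/- below it (-2.19 ± 0.56, and -2.88 without Mettl3-/- library B). Gm13128, the copy that shares most of the Pramef17 transcript, had 45 reads over the 2 WT libraries, 65 in the triple knockout and 5 in Mettl3-/- cells. It showed the same arrangement, with log2 differences of 1.23 ± 0.24 and -2.51 ± 0.47, and it may share reads with Pramef17. Among the single readers, Pramef17 was 15.6 and 18.6 CPM in Ythdf1-/-, 14.2 and 11.6 in Ythdf2-/-, and 18.4 and 22.6 in Ythdf3-/- cells.

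Pramef8 and Pramef12, the 2 most abundant listed genes in WT cells, differed little. Pramef12 was 118 and 104 CPM in WT and 137 and 145 in the triple knockout, a log2 difference of 0.35 ± 0.11, and 101 to 125 CPM in all other libraries. Pramef8 was 65.8 and 49.0 CPM in WT and 82.7 and 68.4 in the triple knockout (0.39 ± 0.16), and 55.6 to 78.8 CPM in the others. Neither gene shares an exact 50-base stretch with an annotated transcript of another gene. Shorter or inexact matches and copies that are not annotated were not searched, so mixing of reads with copies was not tested further.

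**Figure D1:**
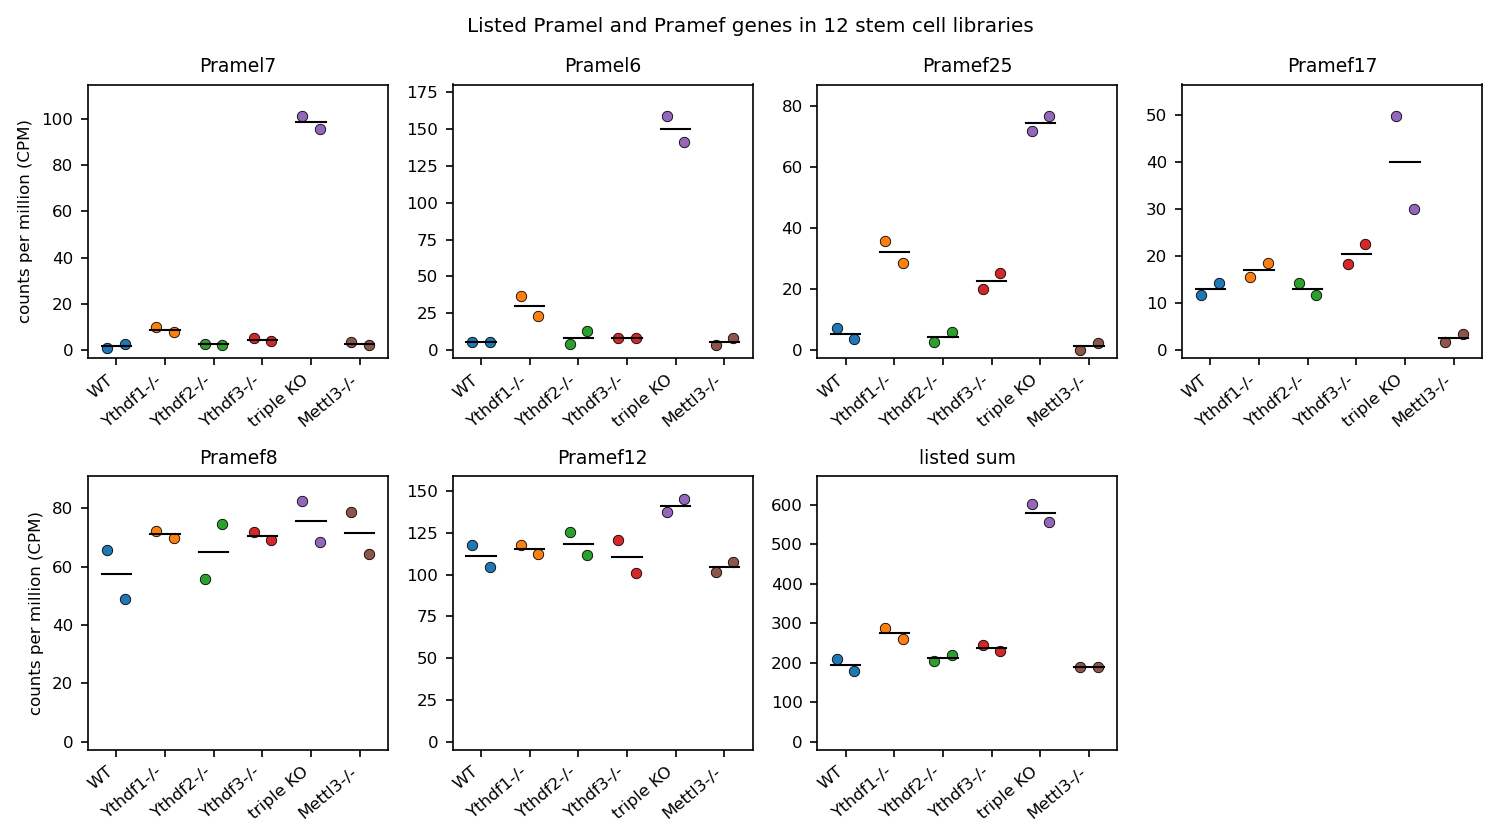
CPM (y axis, linear, from 0) of the 6 listed genes and of their sum in stem cells, by genotype (x axis). Points are single libraries, 2 per genotype, and bars are means. The triple knockout libraries stand highest for Pramel7 (101 and 95.8 CPM), Pramel6 and Pramef25, while Pramef8 and Pramef12 lie within narrow ranges.

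The sum over the 6 genes was 209 and 179 CPM in WT and 602 and 557 CPM in the triple knockout, a log2 difference of 1.57 ± 0.07 (2.98-fold). In Ythdf1-/- cells it was 288 and 260 CPM (0.50 ± 0.08), in Ythdf3-/- cells 244 and 230 CPM (0.28 ± 0.09), in Ythdf2-/- cells 204 and 219 CPM (0.13 ± 0.09), and in both Mettl3-/- libraries 189 CPM (-0.04 ± 0.10). By mean, the order was triple knockout, Ythdf1-/-, Ythdf3-/-, Ythdf2-/-, WT and Mettl3-/-. The ranges of Ythdf2-/- and WT overlapped, as did those of WT and Mettl3-/-, and no other neighbours in the order did. Set directly against Mettl3-/- cells, the triple knockout had a sum higher by 1.61 ± 0.08 on the log2 scale, with Pramef25 at 102 against 2 reads and Pramel7 at 135 against 4. All comparisons with WT share the same 2 WT libraries.

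Every triple knockout library lay above both WT libraries for 6 of the 6 listed genes, as for 33.7% of the 11951 genes tested. The same held for 5 of 6 genes in Ythdf1-/- (25.3% of all genes) and 5 of 6 in Ythdf3-/- cells (25.5%), with Pramef12 overlapping in both. In Ythdf2-/- cells 0 of 6 did (23.1%). In Mettl3-/- cells 0 of 6 lay above WT (33.8%) and 2 of 6 below it (33.7%). Since the list was chosen on these comparisons, nothing is read from these counts.

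The stem cell table held 9 further genes that RefSeq assigns to the family under an older Gm, clone or Prame symbol, a set taken after the values were seen. Of the 7 of them that could be tested, edgeR called 7 higher in the triple knockout (13.3% of all genes tested were called higher), 7 in Ythdf1-/- cells (1.95%), 5 in Ythdf3-/- cells (1.74%) and 0 in Ythdf2-/- cells (0.837%). In Mettl3-/- cells 0 were called higher (15.2%) and 1, Gm13128, lower (15.1%, adjusted p = 3.23e-05). These genes passed a filter on low counts partly through the groups where they were high. Every gene of the stem cell table also reached at least 6 reads in some library, so family genes low in all libraries are not counted. Nothing is therefore read from the numbers called. With only the compared groups in the fit, edgeR called 5 of the unlisted genes in Ythdf1-/- and 5 in Ythdf3-/- cells. DESeq2 called 3 of these unlisted genes in Ythdf1-/- cells, 2 in Ythdf3-/- cells and 5 in the triple knockout. Without WT library A, edgeR called 4 of them in Ythdf1-/- cells, and without Ythdf3-/- library B 3 in Ythdf3-/- cells. Of these genes Gm13119 (now Pramel31) had the most reads in the triple knockout, with 19 reads over the 2 WT libraries and 103, 18, 47, 127 and 11 in Ythdf1-/-, Ythdf2-/-, Ythdf3-/-, triple and Mettl3-/- cells. Gm12794 (now Pramel19) had 12 reads in WT and 86, 9, 40, 94 and 2 in the same order. Gm13083 (now Pramel21) had 0 reads in WT and 28 in the triple knockout, which was at least 15.2-fold higher, with a floor of 3 reads set for the WT group. Pramel1, the other gene with a Prame symbol that was called, was 24.2 ± 2.71 CPM in WT and 51.0 ± 1.49 in the triple knockout (log2 difference 1.07 ± 0.22, adjusted p = 0.000429). Listed and further genes together summed to 256 ± 23.5 CPM in WT (SD, n = 2) and 938 ± 32.8 in the triple knockout. That sum was 513 ± 26.9 CPM in Ythdf1-/-, 417 ± 21.4 in Ythdf3-/-, 299 ± 23.7 in Ythdf2-/- and 243 ± 4.38 in Mettl3-/- cells.

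**Figure D2:**
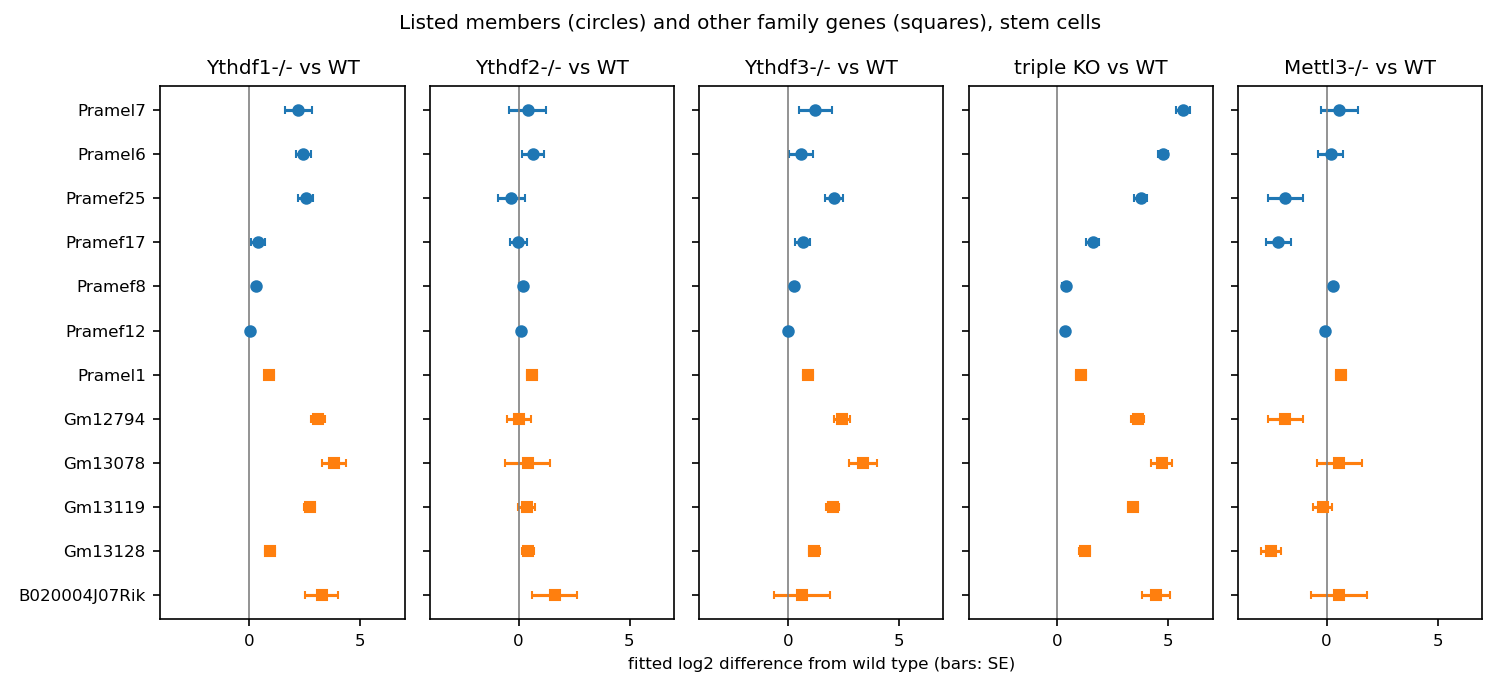
Fitted log2 difference from WT (x axis) with its SE (bars) for the 6 listed genes (circles) and 6 further family genes (squares), 1 panel per knockout. Gm13083 is left out because it had 0 reads in WT. Points lie furthest right in the triple knockout, where Pramel7 was at 5.66, and between -0.32 (Pramef25) and 1.62 (B020004J07Rik, SE 1.03) in Ythdf2-/- cells, and Pramef17, Pramef25, Gm12794 and Gm13128 lie furthest left of 0 in Mettl3-/- cells.

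Of 13 genes of the CUL2 ubiquitin ligase and of DNA methylation, 0 were called in Ythdf1-/-, Ythdf2-/- or Ythdf3-/- cells, where 3.45%, 1.91% and 2.84% of all genes were called. In the triple knockout 3 were called (25.1% of all genes were), and in Mettl3-/- cells 3 (30.4%), shares near those of all genes. In the triple knockout 2 rose, Dnmt3l, a cofactor of the de novo methyltransferases (log2 difference 1.07 ± 0.12, adjusted p = 3.23e-11), and Tceb1, elongin C (0.39 ± 0.09, adjusted p = 0.00225). The dioxygenase gene Tet2 fell (-0.34 ± 0.11, adjusted p = 0.0402). Uhrf1 was 230 ± 3.68 CPM in the triple knockout and 200 ± 2.12 in WT (adjusted p = 0.168), and the scaffold gene Cul2 16.8 ± 0.516 and 20.6 ± 1.12 (adjusted p = 0.596). In Mettl3-/- cells Dnmt3l fell (-1.58 ± 0.19, adjusted p = 6.53e-10), while Tceb1 and the substrate receptor gene Lrr1 rose by 0.32 and 0.56. A second list held 15 tested genes of the LIF pathway and of the 2-cell programme, a transcription state of the early embryo that a few stem cells enter. It included regulators of that state, such as Trim28, Chaf1a and Rif1. In the triple knockout 9 rose and 2 fell, and 7 rose in Ythdf1-/- cells. In Ythdf3-/- cells 4 rose and 1 fell, and in Mettl3-/- cells 1 rose and 2 fell. Trim28 was among those that rose in the triple knockout (0.38 ± 0.07, edgeR, adjusted p = 8.14e-05) and in Ythdf1-/- cells (0.27 ± 0.07, edgeR, adjusted p = 0.0237). In Ythdf2-/- cells 0 of the 15 were called. The shares of all genes called, given above, apply to this list too. In the triple knockout the 2-cell genes Zscan4d (4.28 ± 0.22) and Zfp352 (6.37 ± 0.55) rose, while the LIF receptor subunit gene Il6st (-0.89 ± 0.14, adjusted p = 8.37e-07) and Stat3 (-0.69 ± 0.19, adjusted p = 0.0133) fell. Socs3, a target of STAT3, rose (0.38 ± 0.11, adjusted p = 0.0174), and the LIF receptor gene Lifr differed by 0.11 ± 0.12 (adjusted p = 0.603). These lists were set up with results of the tables known.

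By the Pearson r of log2(CPM + 1) with the sum of the listed genes over the 12 stem cell libraries, the 6 most alike of 10199 genes compared were Nefm (0.978), Arl4d (0.969), Snapc3 (0.968), Brdt (0.966), Dazl (0.962) and Nelfa (0.961). Nefm encodes a neurofilament protein, and Brdt and Dazl are germ cell genes. The 12 points share 6 genotypes and their depth. Of 5 fibroblast markers 4 were in the table, and their summed level was 81.1 to 87.6 CPM in the triple knockout, 66.7 to 71.1 in Ythdf1-/-, 56.9 to 62.5 in Ythdf3-/-, 53.5 to 62.2 in WT, 49.3 to 60.9 in Mettl3-/- and 31.0 to 34.9 in Ythdf2-/- cells. The markers differed among themselves: Col1a1 averaged 58.2 CPM in the triple knockout, 44.6 in Ythdf1-/- and 48.0 in WT cells, Thy1 22.0, 19.8 and 4.94, and Col3a1 1.46, 1.10 and 3.12. Thy1 was also 20.9 CPM in Mettl3-/- cells, where the sum of the listed genes was not above WT. The part of these transcripts in the values above was not tested.

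GV oocytes held 5 of the listed genes, of which 4 passed the filter on low counts. Pramef25, Pramef8 and Pramef12 lay higher in every Zp3-Cre+ library than in every control, as did 21% of the 13551 genes tested, and since the list was chosen with this comparison known nothing is read from that count. Pramef25 counts were 10, 7, 3 and 6 in the 4 controls and 468, 46 and 351 in the 3 Zp3-Cre+ libraries, that is 0.694, 0.856, 0.315 and 0.561 CPM against 26.2, 2.96 and 52.7. All 3 Zp3-Cre+ libraries lay above all controls, but they differed widely from each other. The fitted log2 difference was 5.46 ± 0.85, and 4.50 without Zp3-Cre+ replicate 3.

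Pramef8 was 72.6, 77.8, 63.7 and 61.5 CPM in the controls and 183, 159 and 122 CPM in the Zp3-Cre+ libraries. The groups did not overlap, and the log2 difference was 1.17 ± 0.21. Pramef12, the most abundant listed gene per length in control oocytes, was 153, 228, 312 and 238 CPM in the controls and 328, 324 and 764 CPM in the Zp3-Cre+ libraries. The 3 Zp3-Cre+ libraries were again higher, 2 of them only slightly above the highest control, and the log2 difference was 1.02 ± 0.34. It was 0.40 without Zp3-Cre+ replicate 3.

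Pramef17 was 12.4, 7.46, 5.56 and 9.54 CPM in the controls and 2.07, 6.56 and 9.31 CPM in the Zp3-Cre+ libraries, with overlapping groups (log2 difference -0.57 ± 0.52). Pramel5 did not pass the filter: 0, 0, 0 and 1 reads in the controls and 7, 6 and 5 in the Zp3-Cre+ libraries, a ratio of 19.2 (95% interval 3.03 to 800, covering counting error only). The sum of the 5 genes was 239 to 381 CPM in controls and 540, 492 and 949 CPM in Zp3-Cre+ oocytes, a log2 difference of 1.09 ± 0.26, or 0.65 without Zp3-Cre+ replicate 3. Over the 7 libraries, the genes most alike to this sum among 7438 compared were Rfxap (0.993), Zrsr2 (0.992), Stk4, Smap1 and Eif4g1 (0.989 each) and Hspa1b (0.988), points that share genotype and depth.

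**Figure D3:**
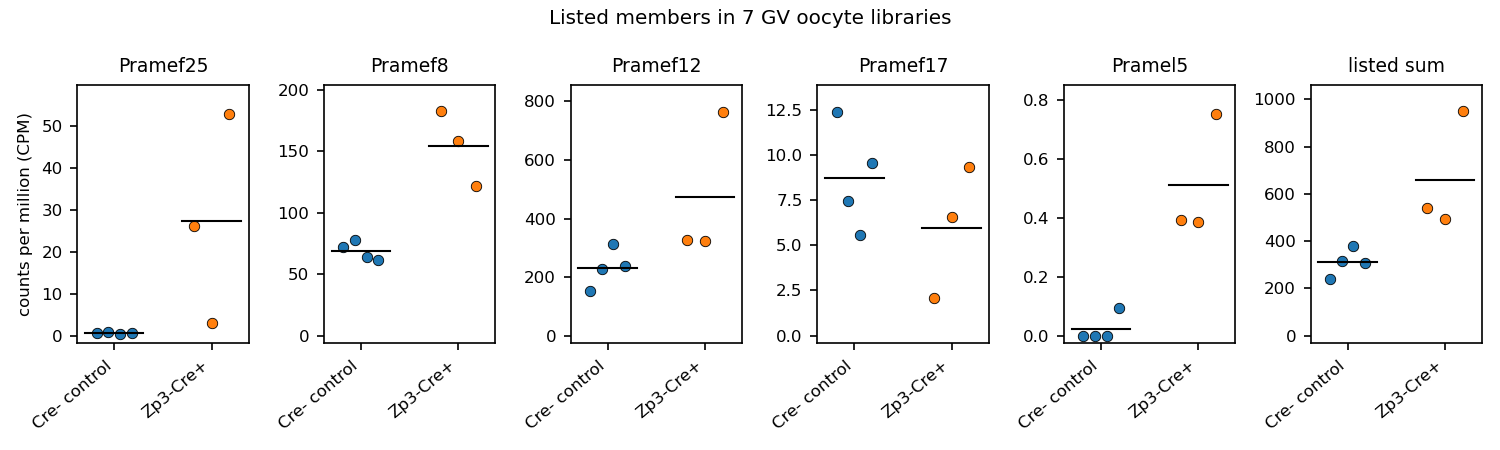
CPM (y axis, linear, from 0) of the 5 listed genes and their sum in GV oocytes of Cre- controls (4 libraries) and Zp3-Cre+ females (3 libraries). Points are libraries and bars are means. The groups do not overlap for Pramef25, Pramef8, Pramef12 and Pramel5, and overlap for Pramef17.

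In stem cells Pramef25 lay below WT in both Mettl3-/- libraries, whereas in oocytes it lay above the controls in all Zp3-Cre+ libraries. This contrast between the tissues was not tested, as the tables were made and scaled separately. Granulosa cell markers differed between the oocyte groups: the summed level of 7 markers was 236 to 1230 CPM in controls and 20.5 to 162 CPM in Zp3-Cre+ libraries, with Inha the most abundant (355 and 45.9 CPM on average) and no marker at 0 throughout a group. Oocyte markers summed to 14000 to 26200 CPM in controls and 20300 to 25800 in Zp3-Cre+ libraries. Single oocyte markers went both ways. Bmp15 was 4660 to 5470 CPM in controls and 2600 to 2920 in Zp3-Cre+ libraries, and Nlrp5 720 to 2280 and 2750 to 4050. The ranges of the other oocyte markers overlapped. The part of the granulosa transcripts in the results was not tested. Of the 13 ligase and methylation genes, 5 were called (28.8% of all genes were): 2 rose (Dnmt3b, 1.22 ± 0.27, and Tet2, 1.49 ± 0.39) and 3 fell (Dnmt3a, -0.70 ± 0.22, Dnmt3l, and Tet1, -2.85 ± 0.63). Uhrf1 was 867 ± 113 CPM in Zp3-Cre+ and 555 ± 126 CPM in control oocytes (edgeR, adjusted p = 0.0521). Of 13 genes tested from the LIF and 2-cell list, 3 rose (Stat3, Socs3 and Dppa4, by 1.16, 1.88 and 1.52) and 1, Tcstv1, fell (-1.80 ± 0.30). Of all genes tested 15.4% were called higher and 13.4% lower, so the share called in this list was near that of all genes.

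The listed genes were a small share of the family in oocytes. RefSeq assigns 25 genes of this table to the family, and their summed level was 9790 ± 1290 CPM (SD, n = 4) in controls and 10400 ± 960 (n = 3) in Zp3-Cre+ oocytes. The 5 listed genes held 2.07% to 4.52% of it in controls and 4.72% to 9.95% in Zp3-Cre+ oocytes, whereas in stem cells the 6 listed genes held 52.7% to 78.5% of 15 genes. The tables differ in depth and in the genes they hold, so these shares are not on a like scale. The largest count of any gene was 1933 in stem cells and 293757 in GV oocytes. Per length, Gm13084 was highest in control oocytes at 1040 CPM per kb, and Gm13023 was at 925, against 90.4 ± 25.2 for Pramef12, 16.5 ± 1.83 for Pramef8, 4.98 ± 1.66 for Pramef17 and 0.36 ± 0.136 for Pramef25. Of the 11 unlisted family genes tested, edgeR called 2 higher (15.4% of all genes) and 1 lower (13.4%). Among the abundant oocyte copies, C87977 rose (0.62 ± 0.20, adjusted p = 0.045) and Gm13103 fell (-1.26 ± 0.24, adjusted p = 0.00453). The call of C87977 was lost with DESeq2, with DESeq2's scaling and with no filter. It was also lost without Zp3-Cre+ replicate 1 or 2, without control 2, 3 or 4, and without controls 2 and 3 together. The scarce B020004J07Rik was 0.468 to 1.47 CPM in controls and 0.964 to 13.4 CPM in Zp3-Cre+ oocytes, with overlapping groups. Its call (2.77 ± 0.90, adjusted p = 0.0435) was lost with the replicate number as a block and with a filter of 5 CPM. Leaving out Zp3-Cre+ replicate 1 or 3, or any single control, also lost it. The block also called C87499 and Gm13125 lower, 4 unlisted genes in all, and DESeq2 called 6. Pramel1 had 0 reads in the 4 controls and 30 in Zp3-Cre+ oocytes, at least 10.7-fold higher with a floor of 3 reads for the group.

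**Figure D4:**
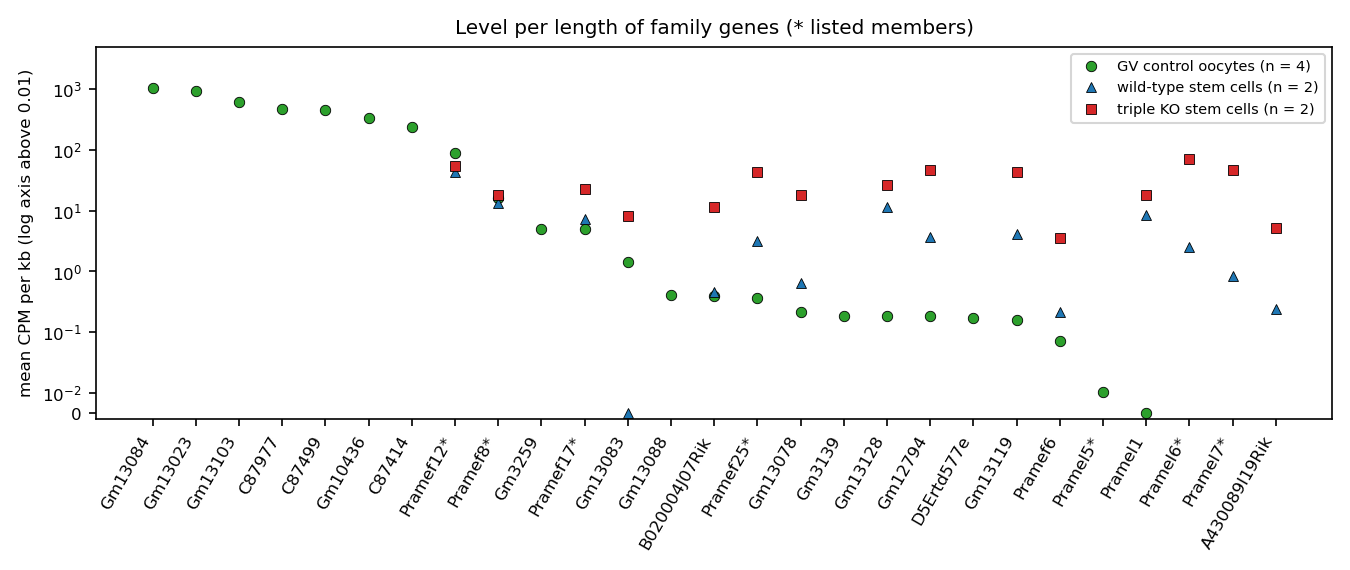
Mean CPM per kb of transcript (y axis, log scale above 0.01) of family genes in GV control oocytes (circles), WT stem cells (triangles) and triple knockout stem cells (squares). Stars mark listed genes, and a missing symbol means that the gene is not in that table. Every gene in the shallow stem cell table reached at least 6 reads in some library, so a missing gene need not be silent there. The tables were scaled separately. The 7 highest genes in oocytes, led by Gm13084 at 1040, are none of the listed ones and have no stem cell symbol.

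In post-GV oocytes, whose table held all 8 listed genes, the 2 Ythdf2-/- libraries were unlike each other. Pramel7 had 783 reads (46.9 CPM) in Ythdf2-/- replicate 1, 0 in Ythdf2-/- replicate 2, and 0, 0 and 1 in the 3 heterozygotes. Pramel6 had 109 and 0 reads in the knockouts and 0 in every heterozygote, Pramel5 67 and 0 against 0, 0 and 1, and Pramel4 72 and 5 against 1, 0 and 0. Pramef25 had 164 and 3 reads against 4, 2 and 0. For these 5 genes replicate 1 of the knockout alone was high, and none of them passed the filter on low counts.

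Pramef8 was 95.3 and 185 CPM in the Ythdf2-/- libraries and 58.9, 52.8 and 38.8 CPM in the heterozygotes, and the groups did not overlap (every knockout library lay above every heterozygote for 14.2% of all genes). Its log2 difference was 1.48 ± 0.43. Pramef12 was 188 and 744 CPM against 163, 123 and 276 CPM (1.32 ± 0.65), and it was at 0 without Ythdf2-/- replicate 2. Pramef17 was 4.67 and 6.90 CPM against 13.4, 5.79 and 0.56 CPM (-0.19 ± 1.14), and its difference turned to 0.73 without heterozygote 1. The sum was 360 and 937 CPM against 236, 182 and 315 CPM, a log2 difference of 1.41 ± 0.51, or 0.55 without Ythdf2-/- replicate 2. Oocyte markers summed to 6740 and 6760 CPM in the knockouts and 2170 to 4280 CPM in the heterozygotes, and their part in this was not tested. Pramef12 and Pramef8 were the largest parts of the sum in both knockout libraries, and in replicate 1 Pramel7 added 46.9 CPM. The 27 genes that RefSeq assigns to the family here summed to 7103 and 9271 CPM in the knockouts. In the heterozygotes they summed to 5321, 4058 and 7680 CPM, so the groups overlapped. The listed genes held 5.06% and 10.1% of this in the knockouts and 4.1% to 4.48% in the heterozygotes.

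EdgeR called 0 of the 13910 genes tested in this comparison (0%), with 782 at an unadjusted p under 0.05, while DESeq2 called 94, among them the unlisted family genes B020004J07Rik and D5Ertd577e. The authors' batch-corrected columns shifted Ythdf2-/- replicate 1 and heterozygotes 1 and 2 together, and Ythdf2-/- replicate 2 and heterozygote 3 together. Within the first of these sets, Ythdf2-/- replicate 1 against 2 heterozygotes, the sum differed by 0.76 on the log2 scale, Pramef8 by 0.74 and Pramef12 by 0.37. With the set as a term in the fit, Pramef8 differed by 1.43 and Pramef12 by 0.85. Other genes, picked after their values were seen, were also highest in Ythdf2-/- replicate 1. The embryo genes Obox6 and Usp17lb had 662 and 664 reads there, against 0 and 2 in the other knockout and at most 0 and 13 in the heterozygotes. Trim43a and Trim43b had 745 and 832 reads there and at most 1 and 3 in any other library. The leukocyte gene Ptprc was 24.7 CPM there and 1.09 to 3.03 elsewhere, and the macrophage gene Lyz2 952 CPM there and 27.7 to 195 elsewhere. The part of these other transcripts in the Pramel values of that library was not tested. Fewer cells of a type and less RNA per cell cannot be told apart in any of these bulk libraries.

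**Figure D5:**
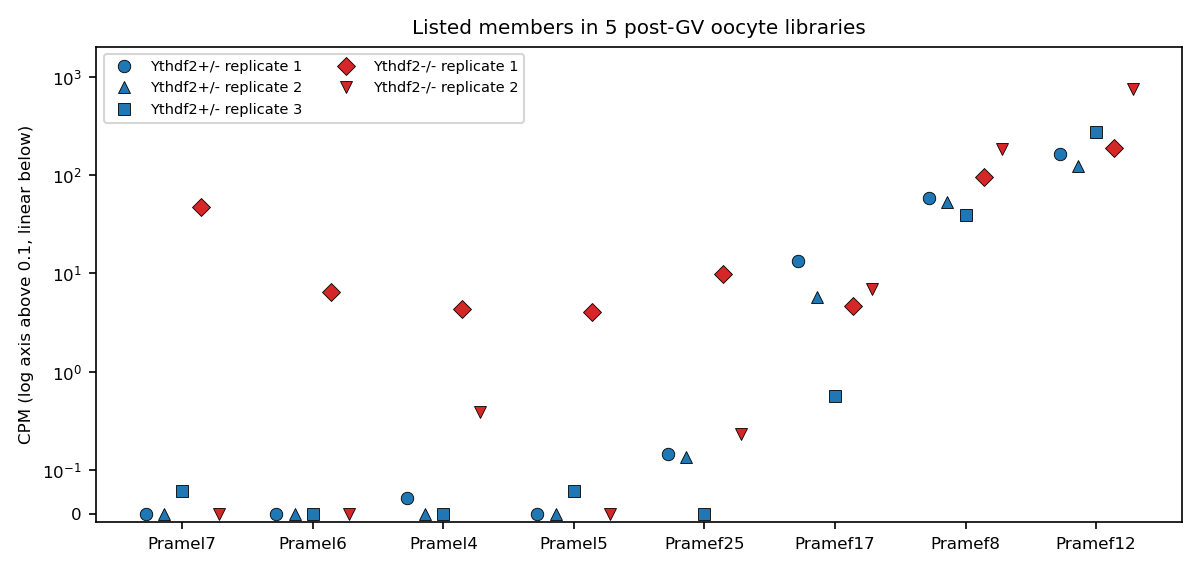
CPM (y axis, log scale above 0.1, linear below) of the 8 listed genes in 5 post-GV oocyte libraries, with 1 symbol shape per library, blue for Ythdf2+/- and red for Ythdf2-/-. Ythdf2-/- replicate 1 (diamonds) alone is high for Pramel7 (46.9 CPM), Pramel6, Pramel4, Pramel5 and Pramef25, and Ythdf2-/- replicate 2 is highest for Pramef8 and Pramef12.

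Round spermatids held 3 of the listed genes, and with a single Ythdf2+/+ library the spread came from the 2 knockouts alone. Pramef8 was the main one at 45.0 and 47.0 CPM in Ythdf2-/- and 43.5 CPM in Ythdf2+/+ cells (log2 difference 0.08 ± 0.30, edgeR, adjusted p = 0.931). Pramel7 had 7 and 5 reads against 29 (0.370 and 0.217 against 0.927 CPM, -1.65 ± 1.59, edgeR, adjusted p = 0.651). Pramef12 had 11 and 29 reads against 13 (1.14 ± 1.40, edgeR, adjusted p = 0.736). None of the 3 was called, while 4.9% of the 16031 genes tested were. The sum was 45.9 and 48.4 CPM against 44.9 CPM. The family genes Prame (30.2 and 26.5 against 20.5 CPM) and Pramel3 (41.7 and 39.9 against 25.3 CPM) were not called either (edgeR, adjusted p = 0.52 and 0.237). Of 12 partner genes tested, edgeR called 1, Uhrf1, at 57.6 and 41.1 against 103.8 CPM (-1.07 ± 0.27, adjusted p = 0.00621), a call that rests on the single Ythdf2+/+ library, whose own spread is not measured. Sertoli and spermatocyte markers summed to 303 and 257 CPM in the knockouts and 408 in the control, and spermatid markers to 8570 and 6370 against 4810 CPM. Their part in these values was not tested.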

How the data were processed

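The members and gene lists were chosen with earlier results of these data known. The submitters' processing notes name the build mm10 and the tools STAR 2.4.2a, CASAVA 1.8.2, DESeq2 and cutadapt. For the counter, the annotation, the treatment of reads that match several genes and duplicate removal, the sources used here give nothing. The tables deposited by the authors hold raw counts per gene. For post-GV oocytes the authors' normalized signal (counts divided by a size factor per library) and their batch-adjusted log2 values were compared, only to find which libraries the adjustment shifted together. Each table holds one tissue and was fitted whole in R 4.3.3 with edgeR 4.0.16 (filterByExpr, TMM, quasi-likelihood test, Benjamini-Hochberg adjustment, threshold 0.05), with all 6 stem cell genotypes in a single fit. Members in the stem cell and oocyte comparisons, on which they were chosen, are given without a p, although a p had been planned for oocytes. Sums over members were added as a row to the fitted table and have no p. Fitted values are log2 differences with SE, and CPM per kb divides by the merged exon length. Where a group had 0 reads a floor of 3 was used, and 95% intervals of count ratios cover counting error only. With 612598 to 1111764 counts per stem cell library, a gene at 1 CPM had about 1 read there.

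Named genes were the members, further family genes that were called, the fixed partner and marker lists, and the 6 genes most alike to a sum by Pearson r where mean log2 CPM reached 4 (pseudocount 1). Family genes under other symbols were taken from RefSeq after the data were seen. Promoters came from RefSeq (GRCm38.p6), and shared 50-base stretches from GENCODE M21 transcripts. Alternatives were DESeq2 1.42.0 and its scaling, no filter, a filter of 5 CPM, only the compared groups, a replicate block and leaving out each library; a batch term, the first batch alone and GV controls 2 and 3 left out were added after seeing the data. Same-numbered GV libraries deviated together in 3 of 3 pairs (r 0.11 to 0.619), while differently numbered ones had r of -0.556 to 0.212. The main GV fit did not use these pairs, and the replicate block was an alternative to it. One post-GV heterozygote repeats a replicate number in its label and is called replicate 3. The scripts were tested on simulated data. The labels do not say that libraries of a stem cell genotype came from separate cultures, so p-values measure the spread between these samples.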

Additional observations from a re-analysis of the deposited data

Results flagged for a closer look

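In GV control oocytes, 1 of the 4 libraries had 1 read of Pramel5 (0.0936 CPM) and the other 3 had none, which put that library far from the others. A rule of this kind picks out about 1 in 20 groups by chance. With no reads in the other 3 libraries, 1 read was enough here, so that rate need not hold for counts this low. Pramef25 lay on opposite sides of the controls on loss of Mettl3 in different tissues: the log2 difference was -1.86 in Mettl3-/- stem cells, where both libraries lay below WT, and 5.46 in Zp3-Cre+ oocytes, where all 3 lay above the 4 controls. The difference between the tissues was not tested. The stem cell value rests on 2 against 12 reads, with a 95% interval of the ratio (0.0276 to 1.14) that includes no difference, and was -1.15 without Mettl3-/- library A and -5.18 without library B.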

How the results depend on the processing

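No result of the alternatives run reversed a called direction. The sum over the listed genes kept its direction in every alternative run except in Mettl3-/- stem cells, where it lay near 0 (-0.14 to 0.07). Leaving out single libraries gave 0.65 to 1.19 for Zp3-Cre+ oocytes, 0.55 to 1.93 past the GV stage, 0.02 to 0.25 in Ythdf2-/- stem cells and 1.56 to 1.67 for the triple knockout against Mettl3-/- cells, and the first post-GV batch alone gave 0.76. The counts of called genes that follow include listed genes, which were chosen on these comparisons, so they show only how calling depends on the settings. In counts of called genes with a Prame symbol, DESeq2 gave 3 in the triple knockout (edgeR 6), 2 in Ythdf1-/- (4), 0 in Ythdf3-/- (2), 0 in Mettl3-/- cells (1), 4 in GV oocytes (2) and 1 in post-GV oocytes (0). For the RefSeq family DESeq2 gave 5 in Ythdf1-/- (10), 2 in Ythdf3-/- (6), 1 in Mettl3-/- (2), 9 in GV (5) and 3 in post-GV oocytes (0). Leaving out single libraries gave 2 to 3 Prame symbols and 6 to 7 RefSeq family genes in Ythdf1-/-, 0 to 1 and 3 to 5 in Ythdf3-/-, 1 to 2 RefSeq family genes in Mettl3-/- cells and 3 to 6 in GV oocytes. With no filter, GV oocytes had 5 Prame symbols and 8 RefSeq family genes called, and without controls 2 and 3 there were 3 RefSeq family genes. In post-GV oocytes the batch term called 2 RefSeq family genes, and the first batch alone 6 Prame symbols and 10 RefSeq family genes, from a single knockout library. With the replicate number as a block, the sum differed by 1.04 and Pramef12 by 0.96 in GV oocytes, and the sum by 1.58 in the triple knockout; 2 Prame symbols were then called in Mettl3-/- cells. Stem cell libraries with one number deviated in the same direction, but weakly (30 pairs, r 0.00208 to 0.15, 2 of them over 0.1). With 2 libraries per genotype the deviations are equal and opposite by construction, so each r occurs once for A and again for B. The 2 pairs over 0.1 are thus the same value, 0.15 for Ythdf1-/- with Ythdf2-/-. The 2 same-numbered post-GV pairs had r of -0.7 and 0.561, and the 2 knockout deviations there are likewise opposite by construction.

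Over all genes, DESeq2 called 684 in the triple knockout (edgeR 2996), 52 in Ythdf1-/- (412), 10 in Ythdf2-/- (228), 25 in Ythdf3-/- (340), 1156 in Mettl3-/- (3630), 613 between the triple knockout and Mettl3-/- cells (2272), 94 in post-GV oocytes (0) and 394 in spermatids (785). A 5 CPM filter left 341 in spermatids, and the batch term and the first batch gave 258 and 666 in post-GV oocytes. The cause of these differences was not tested. Depth limits the stem cell values: Pramel7, Pramel6 and Pramef25 rest on 4 to 12 WT reads.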
